A study of Mus musculus with 49 samples.

Results

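Penk, Pdyn, Pnoc and Pomc, the 4 mouse genes of the opioid peptide precursors, and A830012C17Rik, a non-coding gene that overlaps Penk on the other strand, were followed through 3 ways of isolating RNA from medium spiny neurons (MSNs), the projection neurons of the striatum, here of the nucleus accumbens. They were taken by name and are 5 of the 52636 genes in the deposited count table.

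Opioid peptides are cut out of longer precursor proteins by prohormone convertases and are released from dense core vesicles. Penk encodes proenkephalin, the source of the enkephalins, which act mainly on delta and mu receptors. Pdyn encodes prodynorphin, whose dynorphins act mainly on the kappa receptor. Pnoc encodes the precursor of nociceptin, the ligand of the nociceptin receptor, and Pomc encodes the precursor of beta-endorphin, ACTH and the melanocortins. In the striatum Penk is a classic gene of the D2-MSNs of the indirect pathway, which carry the dopamine receptor Drd2, and Pdyn of the D1-MSNs of the direct pathway, which carry Drd1. Pnoc belongs to scattered other neurons there, and Pomc is best known from the pituitary and the arcuate nucleus.

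The study asked how far the isolation method sets what is seen of each MSN type, with RNA from individual C57BL/6J mice whose ages are not given in the sources used here. For the nuclear libraries, nuclei were sorted from frozen tissue of Drd1-cre or Drd2-cre mice crossed to a Thy1-loxPSTOPloxP-EGFP-F line, which puts a green fluorophore on the nucleus of the Cre cells (6 D1, 5 D2). For the whole cell libraries, papain-treated fresh tissue was sorted for a cytoplasmic fluorophore under the Drd1 or Drd2 promoter, which the mice carried in heterozygous form (8 D1, 6 D2). For the RiboTag libraries, HA-tagged ribosomes were pulled down from fresh tissue of Drd1-cre or Drd2-cre mice crossed to Rpl22-loxPexon4loxP-exon4-HA, so that RNA on the ribosomes of Cre cells was read (6 D1 and 6 D2 labelled male, 5 D1 and 5 D2 labelled female). Nuclear and whole cell mice were male. All mice of a method carried its reporter or tag, so no group is without a transgene, and a cell type is whatever the Drd1 or Drd2 driver labelled.

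Sequence shows how the 4 precursors are related. All 4 carry an opioid core of 5 codons, given in capitals below between the 2 codons before and the 2 codons after it (GRCm38, 5′ to 3′ on the coding strand). The lines were chosen to show the methionine and leucine forms of the enkephalin core, the leucine cores of Pdyn, and the cores of Pomc and Pnoc.
Penk core 1, chr4:4134328-4134354, minus strand: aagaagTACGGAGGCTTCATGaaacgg
Penk core 6, chr4:4133935-4133961, minus strand: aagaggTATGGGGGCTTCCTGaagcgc
Penk core 7, chr4:4133842-4133868, minus strand: aaaagaTACGGGGGCTTTATGcggttc
Pdyn core 1, chr2:129688232-129688258, minus strand: aaacgcTATGGCGGCTTTTTGcgcaaa
Pdyn core 2, chr2:129688124-129688150, minus strand: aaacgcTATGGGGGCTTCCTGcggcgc
Pomc core, chr12:3960367-3960393, plus strand: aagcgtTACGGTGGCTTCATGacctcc
Pnoc core, chr14:65404872-65404898, minus strand: aaaaggTTTGGGGGCTTCACCggggcc
The coding sequence of Penk held 7 cores in 268 codons, 6 with a methionine codon and 1 with a leucine codon in the last place. Pdyn held 3 cores in 248 codons, all ending in a leucine codon. Pomc held 1 (methionine, 235 codons) and Pnoc 1 (threonine, 212 codons). A pair of basic codons, where convertases cut, stood before every core, and also followed 5 of the 7 cores of Penk and all 3 of Pdyn, but not those of Pomc and Pnoc.

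All genes were counted over the whole gene, introns included. Penk (ENSMUSG00000045573) lies at chr4:4133531-4138819 on the minus strand and spans 5289 bases, of which 1634 are exonic. Pdyn (ENSMUSG00000027400, chr2:129686565-129699844, minus strand) spans 13280 bases with 2887 exonic. Pnoc (ENSMUSG00000045731, chr14:65400673-65425472, minus strand) spans 24800 bases and Pomc (ENSMUSG00000020660, chr12:3954951-3960642, plus strand) 5692. A830012C17Rik (ENSMUSG00000085996, chr4:4138321-4188703, plus strand) is annotated as a processed transcript and spans 50383 bases, of which 1665 are exonic.

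Penk and A830012C17Rik overlap at their 5′ ends, each starting inside the other, and share chr4:4138321-4138819. These 499 bases are 9.43% of the Penk gene and 0.99% of A830012C17Rik, and 233 of them are exonic in both. The counting ignored strand and assigned a fragment to every gene it overlapped, so a fragment from this stretch was counted for both genes, whichever made it. A window of 30 bases from the part that is exonic in both genes is given to show this, as read from each strand.
A830012C17Rik, chr4:4138681-4138710, plus strand: agatgccactctgcaagagaaagaaagaag
Penk, chr4:4138681-4138710, minus strand: cttctttctttctcttgcagagtggcatct
None of the other 3 genes overlapped an annotated neighbour.

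Some libraries stood apart. In the nuclear set, 4 of 6 D1 libraries held 3837701 to 8154682 counts against 43098274 and 68777008 in numbers 3 and 1, whereas 4 of 5 D2 libraries held 35944738 to 47079150 and number 7 held 3701255. Whole cell libraries held 10476223 to 27965357 counts and RiboTag libraries 24076888 to 45641342, of which 84.9% to 88.3% fell on only 10 genes. As a measure of background, 1703 genes of odorant and vomeronasal receptors were taken as silent here, and their count per kilobase, applied to every gene, would account for 33.0% to 53.2% of all counts in nuclear D2 libraries, 0.582% to 22.6% in nuclear D1, 8.46% to 53.3% in whole cell and at most 0.0645% in RiboTag libraries. Xist outnumbered the summed counts of 4 Y-linked genes in 4 of 6 D1 and 2 of 6 D2 RiboTag libraries labelled male, as it did in all 10 labelled female. Values of the 5 genes in the male RiboTag set, and those of the listed genes named in it, are therefore given with and without those 6 libraries. Between these bulk samples, fewer cells of a type and less RNA per cell cannot be told apart.

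Drd1 and Drd2 followed the labels in the nuclear set, with log2 fold changes of -1.78 (SE 0.300, adjusted p = 0.00838) and 1.72 (SE 0.210, adjusted p = 0.00237). The other D2-MSN markers tested there, Adora2a (-0.08) and Gpr6 (-1.14), were not called (adjusted p = 0.808 and 0.150). Nor were the other D1-MSN markers tested there, Tac1 (-0.46) and Chrm4 (-0.80, adjusted p = 0.247 and 0.129). In the whole cell set all 4 D1-MSN markers (Drd1, Tac1, Isl1, Chrm4) were called higher in D1 and all 4 D2-MSN markers (Drd2, Adora2a, Gpr6, Sp9) higher in D2, and 3 and 4 of 4 in both RiboTag sets. Throughout, a log2 fold change is D2 over D1, from edgeR's quasi-likelihood test with Benjamini-Hochberg adjustment over all genes tested. A gene was called at an adjusted p of at most 0.05 with a log2 fold change beyond 0.38 in size and a mean level above the 25th percentile, and in the nuclear set an SE below the 75th. Levels are in FPKM, fragments per kilobase of gene span in a library scaled to 1000000 fragments (CPM is the same without the division by length), and compare only within a method.

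Penk was higher in D1 in the nuclear libraries and higher in D2 in the whole cell and both RiboTag sets. In the 6 nuclear D1 libraries Penk ran from 14.7 to 65.4 FPKM around a median of 51.2. The 5 nuclear D2 libraries held 7.17, 11.4, 12.9, 2.23 and 6.81 FPKM. Every D1 library thus lay above every D2 library, although D1 number 3 at 14.7 came close to D2 number 3 at 12.9. The log2 fold change was -2.43 (SE 0.457, adjusted p = 0.00838), 5.41 times higher in D1. Of the 5 genes, Penk and Pdyn passed the filters in this set and 1 was called, beside 12.7% of all 9868 genes tested.

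In whole cell D1 libraries Penk ran from 10.9 to 50.4 FPKM (median 27.5, n = 8). The 6 whole cell D2 libraries ran from 185 to 405 FPKM with a median of 268. The groups lay far apart, the lowest D2 library above the highest D1 library. Penk was 9.70 times higher in D2 (log2 fold change 3.28, SE 0.315, adjusted p = 4.20e-06). With Pdyn and A830012C17Rik, 3 of the 5 genes were called in this set, where 0.782% of 16757 genes were.

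On ribosomes Penk again separated the cell types without overlap. The 6 D1 libraries labelled male ran from 13.7 to 36.7 FPKM with a median of 29.8, and the 6 D2 libraries from 119 to 138 with a median of 137. Penk was 4.94 times higher in D2 (log2 fold change 2.31, SE 0.149, adjusted p = 5.94e-11), and the change was 2.56 (SE 0.205, adjusted p = 1.56e-07) without the 6 libraries rich in Xist, on 2 D1 and 4 D2 libraries. Female D1 libraries held 35.5, 23.6, 24.1, 18.6 and 15.6 FPKM. Female D2 libraries held 160, 123, 135, 166 and 133 FPKM, 6.11 times higher (log2 fold change 2.61, SE 0.152, adjusted p = 3.17e-10). In each RiboTag set 3 of the 5 genes were called, against 2.57% of 6812 genes in the set labelled male and 1.89% of 7086 in the female set.

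**Figure D1:**
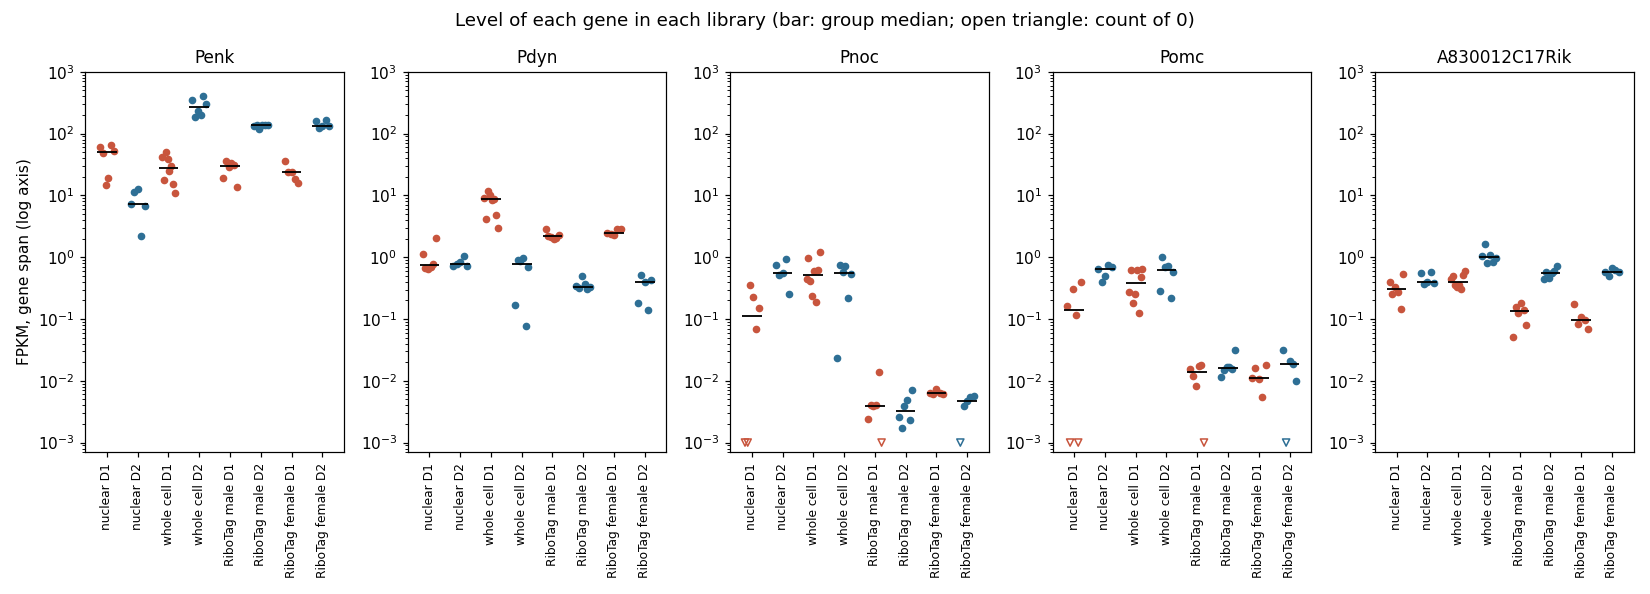
Level of each gene in every library, in FPKM per gene span on a log axis, with 1 point per library, D1 in red and D2 in blue, bars for group medians and open triangles for counts of 0. The nuclear D2 points of Penk (2.23 to 12.9) lie below those of D1 (14.7 to 65.4), whereas in the other sets the D2 points of Penk lie above D1 and those of Pdyn below.

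The test of the difference between methods came from a fit of the 37 libraries labelled male, over 36239 genes. The D2 against D1 change of Penk was lower in nuclear than in whole cell libraries by a log2 difference of -7.13 (SE 0.715, adjusted p = 2.44e-08) and lower in nuclear than in RiboTag libraries by -5.97 (SE 0.717, adjusted p = 3.33e-06). Without the 6 libraries rich in Xist the latter was -6.28 (adjusted p = 0.0220). In these comparisons 23.3% and 13.9% of all genes were called, and the median of all genes stood at 0.48 and 0.24. RiboTag and whole cell changes differed by -1.15 (SE 0.617, adjusted p = 1.00), in a comparison that called 0.0993% of genes, and by -0.79 without those 6 libraries. These differences come from libraries scaled together without the FPKM filter, so they are not the plain difference of the values within each method.

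The nuclear value of Penk was also followed within its technical splits. With background subtracted it was -2.05 and with the sequencing lane as a term -2.57, both called. Among libraries of lane 4 only it was -3.03 (adjusted p = 0.118) and of lane 5 only -2.01 (0.325). Among those over 10000000 counts, where D1 had only numbers 1 and 3, it was -2.17 (0.149). Among those under 10000000 it was -2.53, with number 7 as the only D2 library. D1 thus stayed above D2 in each split, but neither lane nor the split over 10000000 counts reached the threshold. The lane numbers were read from column headings in a supplementary table of the study and not from the labels, and whether they mark a batch is not given in the sources used here. Background, depth, signs of RNA quality and the summed levels of markers of other cells moved with the nuclear cell types. The 10 genes with the most counts took 20.3% to 66.9% of all counts in nuclear D1 and 5.23% to 13.9% in nuclear D2, and the 13 mitochondrial protein genes 0.0275% to 0.299% and 0.00723% to 0.0221%, without overlap in either. The summed level of 6 interneuron markers was 51.2 to 140 CPM in D1 and 162 to 276 in D2, that of 4 astrocyte markers 29.4 to 96.8 and 95.2 to 134, of 4 microglia markers 62.3 to 145 and 144 to 198 and of 4 endothelial markers 16.5 to 132 and 160 to 278. That of 4 oligodendrocyte markers went the other way, with overlap, at 235 to 603 (median 558) and 241 to 504 (median 379). Single genes did not all follow the sums. Of 2 interneuron markers tested, Sst was called higher in D1 (-1.94), and of 3 astrocyte markers Gja1 was (-0.63). No tested marker of these lists was called higher in D2, but only 1 of 4 microglia and 0 of 4 endothelial markers passed the filters. Per gene span the 4 astrocyte markers had medians of only 0.502 to 0.739 FPKM in nuclear D2, where Pnoc, near background, had 0.549. How much of these sums was background was not tested. The part of all these measures in the Penk result was not tested. The Penk count was 94.8 to 7950 times the expected background in D1 and 5.78 to 55.0 times in D2, so background at that level was at most 17.3% of any nuclear D2 count of Penk.

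Pdyn was higher in D1 in whole cell and RiboTag libraries, and its nuclear levels overlapped. The nuclear D1 libraries ran from 0.641 to 2.07 FPKM (median 0.737, n = 6) and the nuclear D2 libraries held 0.728, 0.762, 0.831, 1.04 and 0.720 FPKM. The D2 values fell inside the D1 range. The log2 fold change was -0.27 (SE 0.288, adjusted p = 0.534). Without D1 number 6, which held the 2.07, it was 0.03, and without the FPKM filter it was -1.42 and was called (adjusted p = 0.0112). Pdyn stood at only 2.15 to 3.56 times the expected background in nuclear D2, against 4.14 to 143 times in nuclear D1.

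In whole cell libraries Pdyn ran from 2.96 to 11.7 FPKM in D1 (median 8.62) and from 0.0766 to 0.973 in D2 (median 0.790). No D2 library reached the lowest D1 library, and Pdyn was 12.3 times higher in D1 (log2 fold change -3.62, SE 0.467, adjusted p = 0.000196). On ribosomes of mice labelled male, D1 ran from 1.94 to 2.89 FPKM (median 2.17) and D2 from 0.308 to 0.501 (median 0.334). The change was -2.61 (SE 0.103, adjusted p = 2.52e-15), and -2.48 (SE 0.122, adjusted p = 1.20e-10) without the 6 libraries rich in Xist. Female D1 libraries held 2.43, 2.36, 2.33, 2.86 and 2.89 FPKM and female D2 libraries 0.181, 0.521, 0.398, 0.142 and 0.429. Pdyn was 7.79 times higher in female D1 (log2 fold change -2.96, SE 0.197, adjusted p = 1.57e-09).

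The nuclear change of Pdyn differed from the whole cell change by 2.28 (SE 0.517, adjusted p = 0.00135), 1.80 above the median of all genes. Its difference from the RiboTag change was 1.23 (SE 0.526, adjusted p = 0.125) and passed the threshold at 1.73 (adjusted p = 0.0307) with DESeq2 size factors. It was 1.01 (adjusted p = 0.583) without the 6 libraries rich in Xist. RiboTag and whole cell changes differed by 1.05 (SE 0.495, adjusted p = 1.00), or 1.35 without those libraries.

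**Figure D2:**
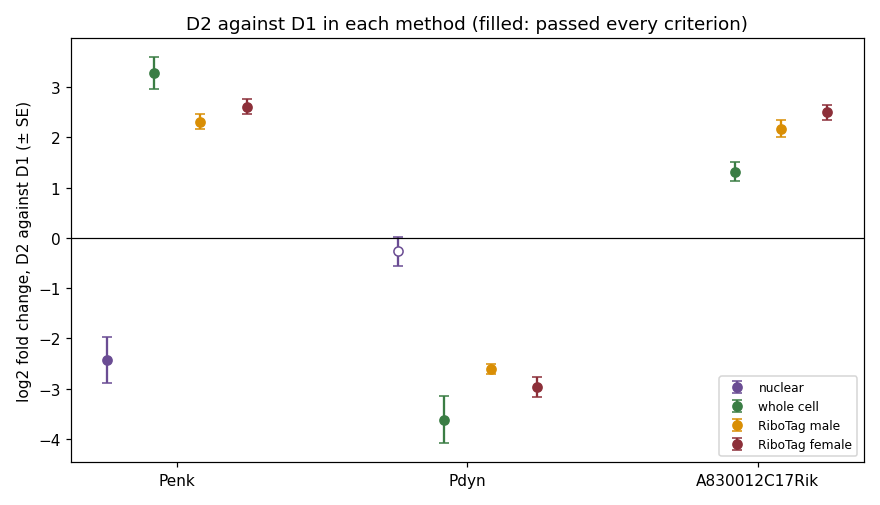
Log2 fold change of D2 over D1 for each gene that passed the filters in each of the 4 comparisons, with bars of 1 SE, a line at 0, a colour for each method and filled points where the gene was called. Penk lies at -2.43 in nuclear libraries and between 2.31 and 3.28 in the others, Pdyn between -3.62 and -2.61 outside the nuclei, and A830012C17Rik above 0 wherever it was tested.

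The ratio of Penk to Pdyn within a library needs no scaling between libraries. It was taken per kilobase of gene span on the log2 scale, and is shown in the plot of log2 ratios per library. Nuclear D1 libraries averaged 5.39 ± 0.830 (SD, n = 6), whereas nuclear D2 libraries averaged 3.10 ± 1.16 (SD, n = 5). Both nuclear groups held more Penk than Pdyn, D1 by more, with a difference of -2.29 (exact permutation test, two-sided, p = 0.00433, adjusted over 4 comparisons 0.00577). In whole cell libraries it was 1.90 ± 0.229 (n = 8) in D1 and 9.24 ± 1.96 (n = 6) in D2, a difference of 7.35 (exact p = 0.000666, adjusted 0.00266). Penk thus exceeded Pdyn per length even in whole cell D1 libraries, although Pdyn is the D1 gene.

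On ribosomes the log2 ratio was 3.52 ± 0.682 in D1 and 8.54 ± 0.333 in D2 of mice labelled male (n = 6 each), a difference of 5.02 (exact permutation p = 0.00216, adjusted 0.00433). It was 3.14 ± 0.571 in D1 and 8.90 ± 1.01 in D2 of female mice (n = 5 each), a difference of 5.76 (exact permutation p = 0.00794, adjusted 0.00794). No range overlapped in any of the 4 comparisons, and each p is the smallest its design allows. Without the 6 libraries rich in Xist the male difference was 5.19, where 2 against 4 libraries cannot reach the threshold (adjusted exact permutation p = 0.133). With background subtracted the nuclear and whole cell differences were -1.88 and 8.19.

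**Figure D3:**
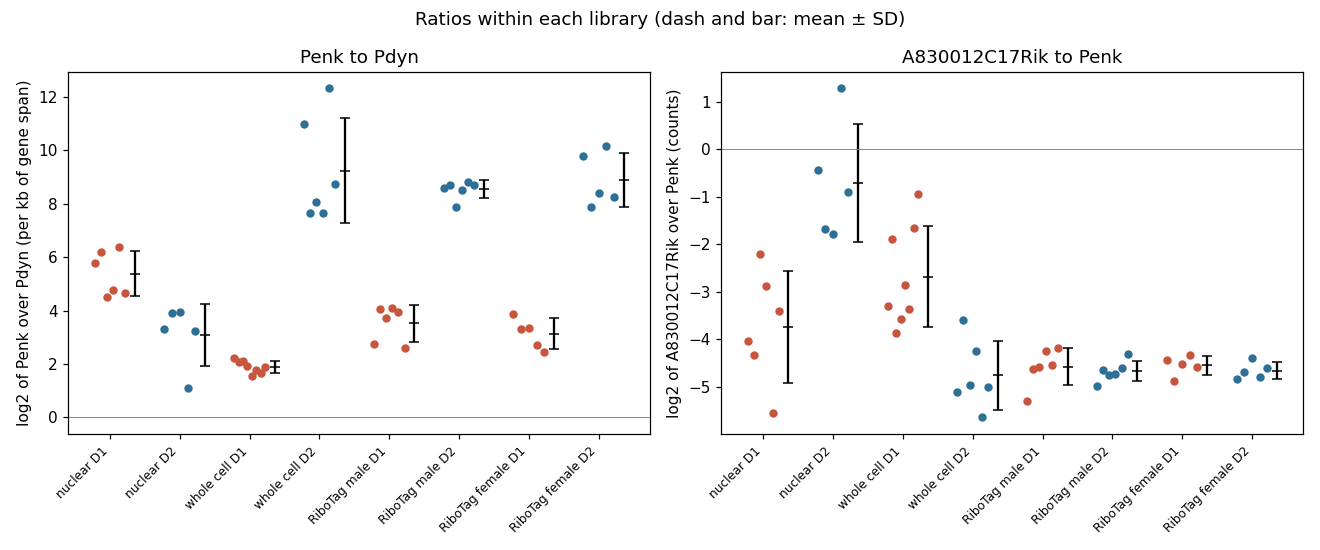
Log2 ratio of Penk to Pdyn per kilobase of gene span and of A830012C17Rik to Penk counts, with 1 point per library, D1 in red and D2 in blue, and a dash and bar for the mean and SD of each group. The Penk to Pdyn ratio lies higher in D1 than in D2 in nuclear libraries (5.39 and 3.10 on average) and far lower in D1 in the others, and the A830012C17Rik to Penk ratio overlaps fully in the RiboTag sets.

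A830012C17Rik moved with Penk in whole cell and RiboTag libraries. It was 0.308 to 0.596 FPKM in whole cell D1 (median 0.402, n = 8) and 0.793 to 1.61 in whole cell D2 (median 1.02, n = 6). All D2 libraries lay above all D1 libraries, with a log2 fold change of 1.32 (SE 0.184, adjusted p = 0.000622). In RiboTag libraries labelled male it was 0.0511 to 0.182 FPKM in D1 (median 0.132) and 0.441 to 0.723 in D2 (median 0.562), a change of 2.17 (SE 0.171, adjusted p = 1.88e-09). Without the 6 libraries rich in Xist that change was 2.22 (SE 0.163, adjusted p = 5.50e-08). Female D1 libraries held 0.173, 0.0844, 0.109, 0.0964 and 0.0685 FPKM of A830012C17Rik and female D2 libraries 0.582, 0.504, 0.672, 0.626 and 0.575, a change of 2.49 (SE 0.147, adjusted p = 3.42e-10).

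In nuclear libraries A830012C17Rik stayed below the FPKM filter and had no main test. Nuclear D1 ran from 0.143 to 0.525 FPKM (median 0.305) and nuclear D2 held 0.555, 0.374, 0.390, 0.570 and 0.3795. The groups overlapped, and without the FPKM filter the log2 fold change was -0.64 (adjusted p = 0.0944). The expected background made up 58.0% to 67.7% of the A830012C17Rik count in nuclear D2, where its counts were 1.48 to 1.73 times that background, against 2.16 to 50.8 times in nuclear D1. In RiboTag libraries the count was 146 to 2827 times the background.

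In the pooled fit its D2 against D1 change was lower in nuclear than in whole cell libraries by -2.16 (SE 0.338, adjusted p = 3.66e-05) and lower than in RiboTag libraries by -2.82 (SE 0.353, adjusted p = 6.04e-06). The latter was -2.93 (adjusted p = 0.00334) without the 6 libraries rich in Xist. RiboTag and whole cell changes differed by 0.66 (SE 0.325, adjusted p = 1.00), or 0.78 without them.

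Set against Penk, the share of A830012C17Rik overlapped between D1 and D2 in RiboTag libraries. Its counts were 2.53% to 5.50% of the Penk counts in male D1, 3.17% to 5.02% in male D2, 3.40% to 4.95% in female D1 and 3.47% to 4.74% in female D2. The log2 ratio differed between D2 and D1 by -0.09 in the male set (exact permutation p = 0.639, adjusted 0.639) and by -0.12 in the female set (exact permutation p = 0.357, adjusted 0.476), while both genes changed more than 4-fold. Without the 6 libraries rich in Xist the male difference was -0.41, where 2 against 4 libraries cannot reach the threshold (adjusted exact permutation p = 0.178). The 2 D1 log2 ratios left (-4.54 and -4.18) then lay above the 4 of D2 (-4.98 to -4.61), so that subset did not overlap. How many of these fragments lay in the shared 499 bases cannot be told apart from the count table.

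Outside RiboTag the share differed between cell types. It was 6.80% to 52.3% in whole cell D1 and 1.99% to 8.32% in whole cell D2, a log2 difference of -2.08 (exact permutation p = 0.00133, adjusted 0.00533). In nuclear D1 it was 2.08% to 21.8%, and the 5 nuclear D2 libraries held 73.8%, 31.3%, 28.9%, 243% and 53.1%. D2 number 5, the library with the lowest Penk, had more counts on A830012C17Rik (1190) than on Penk (489). The expected background, over a far longer gene, was 805 of the former and 84.5 of the latter. With it subtracted A830012C17Rik held 385 counts and Penk 404. The nuclear log2 difference was 3.03 (exact permutation p = 0.00433, adjusted 0.00866), and with background subtracted the differences were 2.06 in nuclear and -1.21 in whole cell libraries (both adjusted exact permutation p = 0.0240).

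Pnoc, the nociceptin precursor, was low in all methods and passed the filters of no D2 against D1 comparison. Its counts were 0, 0, 440, 42, 5 and 18 in nuclear D1 and 742, 693, 747, 960 and 28 in nuclear D2. They were 102 to 315 in whole cell D1, 9 to 414 in whole cell D2 and 0 to 10 in RiboTag libraries. Per gene span, the median was 0.110 FPKM in nuclear D1, 0.549 in nuclear D2, 0.518 in whole cell D1 and 0.553 in whole cell D2.

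These Pnoc counts lay near the background. They were 1.14 to 2.42 times the expected background in nuclear D2, 1.83 to 3.06 times in whole cell D1 and 0.393 to 3.39 times in whole cell D2. Summed over libraries, Pnoc took 3.75 CPM in nuclear D1 (95% Poisson interval 3.43 to 4.09) and 18.4 in nuclear D2 (17.8 to 19.1), intervals that cover counting error only. Ranges of its level overlapped in the nuclear, whole cell and male RiboTag sets, and without the FPKM filter the change was 1.31 (adjusted p = 0.222) in nuclear and -0.21 in whole cell libraries (not called). In the RiboTag groups it took 0.0924 to 0.168 CPM. Female D1 libraries held 5 or 6 counts and female D2 libraries 0 to 5, which is too few to read as a difference.

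Pomc, the beta-endorphin precursor, was also low and did not pass the FPKM filter of any D2 against D1 comparison. Its counts were 37, 0, 85, 5, 0 and 11 in nuclear D1 and 149, 125, 155, 176 and 18 in nuclear D2, or 0 to 0.403 FPKM against 0.656, 0.403, 0.496, 0.747 and 0.703. The nuclear ranges touched without overlap, D2 above D1. Without the FPKM filter the change was 0.82 (adjusted p = 0.310). Nuclear D2 counts of Pomc were 1.81 to 3.20 times the expected background, and those of nuclear D1 0 to 20.8 times.

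Whole cell libraries held 16 to 45 counts of Pomc in D1 and 21 to 113 in D2, which were 1.35 to 2.34 and 2.55 to 4.95 times the expected background. The change without the FPKM filter was 0.70 and was not called. RiboTag libraries held 0 to 7 counts each. The arcuate markers Agrp and Tbx3 summed to 38.3 to 65.6 CPM in nuclear D1, 65.8 to 78.5 in nuclear D2 and 8.60 to 12.8 in RiboTag libraries. Nearly all of the RiboTag sum was Agrp, at 8.56 to 12.7 CPM, whereas Tbx3 was at most 0.118 CPM there and at 0 in some libraries of every RiboTag group. Per gene span the RiboTag group medians of Agrp were only 0.137 to 0.171 FPKM. Since the counting took whole genes without strand, these counts need not be Agrp mRNA, which was not tested.

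**Figure D4:**
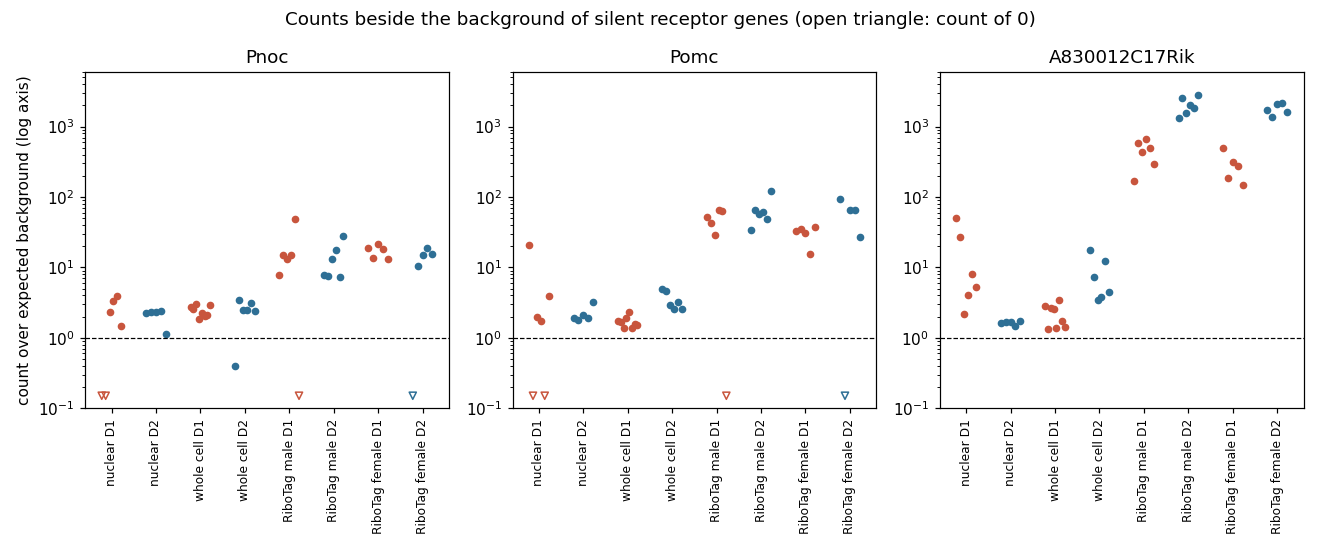
Count of each gene over the count expected from the background per kilobase of silent receptor genes, on a log axis, for Pnoc, Pomc and A830012C17Rik in every library, with D1 in red and D2 in blue, open triangles for counts of 0 and a dashed line at the background itself. In nuclear and whole cell libraries Pnoc and Pomc lie at most 4.95 times above the line, except 1 nuclear D1 library of Pomc at 20.8, and A830012C17Rik in nuclear D2 lies at 1.48 to 1.73.

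Between methods the order of the groups turned with the scaling. On a common scale over all libraries, the median of Penk was 440 FPKM in male and 433 in female D2 RiboTag libraries, whose ranges overlapped. The other groups had medians of 98.2 in male RiboTag D1, 75.7 in whole cell D2, 71.3 in female RiboTag D1, 31.2 in nuclear D1, 9.61 in whole cell D1 and 2.27 in nuclear D2. Each of these 6 overlapped the next in the order. On the same scale the median of Pdyn was 7.41 in female and 7.16 in male D1 RiboTag libraries, 0.223 in whole cell D2 and 0.249 in nuclear D2. With each method scaled on its own, as in the levels above, whole cell libraries had the higher medians instead, for Penk 268 FPKM in whole cell D2 against 137 and 135 in male and female RiboTag D2, and for Pdyn 8.62 in whole cell D1 against 2.17 and 2.43 in RiboTag D1. The order between methods is thus no ranking of the groups.

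Methods were also compared within a cell type in the pooled fit, where the median of all genes itself moved. Against whole cell D1, nuclear D1 held more Penk (log2 difference 1.86, adjusted p = 0.00142) and less Pdyn (-1.86, adjusted p = 0.000174), beside a median of -0.27 and 17.3% of genes called. A830012C17Rik was 0.77 higher there (adjusted p = 0.0128), and 0.52 with DESeq2 size factors, which was not called. With each method scaled on its own, its median was instead lower in nuclear D1 (0.305 FPKM) than in whole cell D1 (0.402). Against whole cell D2, nuclear D2 held less Penk (-5.27, adjusted p = 3.29e-08) and less A830012C17Rik (-1.39, adjusted p = 0.000104), with a median of 0.21 and 18.3% called, and Pdyn at 0.42 was not called. Penk therefore moved in opposite directions between nuclei and whole cells in D1 and D2.

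RiboTag libraries differed from whole cell libraries in most genes, with 77.8% called in D1 and 75.7% in D2 and medians of -2.37 and -2.30. The direction depends on the scaling. With each method scaled on its own, whole cell medians were higher for Penk in D2, and for Pdyn and A830012C17Rik in both cell types. On that scale the medians of Penk in D1 were 27.5 FPKM in whole cell and 29.8 in male RiboTag libraries. In the pooled fit Penk was 3.58 higher on ribosomes in D1 (adjusted p = 6.58e-09) and 2.43 in D2 (2.81e-05). Pdyn was 1.92 higher in D1 (3.56e-06) and 2.97 in D2 (2.22e-08). A830012C17Rik was 1.99 and 2.65 higher, in counts that include any fragment from the stretch it shares with Penk. Pnoc was -3.09 in D1 (adjusted p = 0.000220) and -3.17 in D2 (0.000295), or -0.72 and -0.87 relative to the median gene. Pomc was -1.18 in D1 (0.0538, not called) and -1.35 in D2 (0.0294), both above the value of the median gene. Without the 6 libraries rich in Xist, Penk was 3.33 and 2.54, Pdyn 1.88 and 3.23 and A830012C17Rik 1.90 and 2.68, all called, whereas Pnoc in D1 (-2.42, adjusted p = 0.0826) and Pomc in D2 (-1.40, 0.0716) were no longer called.

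Sex labels were compared in the 22 RiboTag libraries over 11238 genes, and none of the 3 genes tested was called. Female against male, Penk was -0.34 (SE 0.178, adjusted p = 0.563) in D1 and -0.03 (SE 0.175) in D2, Pdyn 0.06 and -0.28, and A830012C17Rik -0.36 and -0.04. Of all genes, 0% were called in D1 and 0.0712% in D2. The D2 against D1 change differed between the sexes by 0.31 (SE 0.249) for Penk, -0.34 (SE 0.256) for Pdyn and 0.32 (SE 0.288) for A830012C17Rik, where edgeR called 0 genes (0%), 755 had an unadjusted p within 0.05 and DESeq2 called 0. In D1 edgeR called 0 genes, 1052 had an unadjusted p within 0.05 and DESeq2 called 6. Since 6 libraries labelled male held more Xist, these contrasts are not a clean comparison of sexes. Without them none of these genes was called either.

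The receptors that read these peptides were followed with the rest of the pathway. Of 15 listed genes for opioid receptors, precursor processing and peptidases, 6 were tested in nuclear and 8 in each other set. Oprd1, the delta receptor, was higher in D2 in whole cells (log2 fold change 1.45, SE 0.285, adjusted p = 0.0199), in male (1.67, SE 0.150, and 2.02, SE 0.229, without the 6 libraries rich in Xist) and in female RiboTag libraries (1.84, SE 0.113). Oprl1, the nociceptin receptor, was higher in D1 in whole cells (-1.24, SE 0.226, adjusted p = 0.0107). In male RiboTag libraries Oprl1 was -0.45 (adjusted p = 0.00628) but not called, for its low mean level, and -0.29 (adjusted p = 0.481) without the 6 libraries rich in Xist. In female RiboTag libraries it was -0.08 (adjusted p = 0.853). Oprk1, the kappa receptor, was higher in D1 on ribosomes of mice labelled male (-0.46, SE 0.107, adjusted p = 0.00610), but was not called without the 6 libraries rich in Xist (-0.20, SE 0.146, adjusted p = 0.567), and stood at -0.30 in female mice (adjusted p = 0.135). In nuclei neither receptor tested was called, with Oprk1 at -0.15 and Oprl1 at 0.19.

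Among the genes of precursor processing, 3 of 4 tested were called higher in nuclear D1, where 9.74% of all genes were, and 0 of 4 in every other set. These were Pcsk1n, an inhibitor of prohormone convertase 1 (-2.47, SE 0.468, adjusted p = 0.00838), Scg5, a chaperone of prohormone convertase 2 (-0.46, SE 0.135), and Cpe, the carboxypeptidase that trims the cut peptides (-0.48, SE 0.152). Pcsk2 itself was -0.05 (adjusted p = 0.856). The median of the whole list of 15 was -0.31 in nuclei, beside 0.08 for all genes, and -0.13, -0.09 and -0.05 in whole cell, male and female RiboTag libraries, beside -0.05, 0.00 and 0.00. Of the peptidases only Npepps was tested, and it was not called.

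Other neuropeptide precursors also changed. Tac1, the substance P precursor and a D1-MSN gene, was higher in D1 in whole cells (-3.83, SE 0.386, adjusted p = 7.99e-06) and in male and female RiboTag libraries (-1.34 and -1.30), and stood at -0.46 in nuclei (adjusted p = 0.247). Like Pdyn, it was thus called higher in D1 outside the nuclei and not in them. Sst, made by interneurons, was higher in D1 in nuclei (-1.94, SE 0.374, adjusted p = 0.00838) and in male and female RiboTag libraries (-0.95 and -1.31). Npy, made by the same interneurons, was higher in D1 on ribosomes (-0.57 and -0.99). Of the 8 listed precursors, 1 of 4 tested was called in nuclei, 1 of 6 in whole cells and 3 of 6 in each RiboTag set, all higher in D1. Of all genes, 9.74% were called higher in D1 in nuclei, 0.37% in whole cells, 1.64% in male and 1.17% in female RiboTag libraries. Without the 6 libraries rich in Xist, Tac1 (-1.35) and Sst (-0.91) were called in the male set, Npy (-0.47, adjusted p = 0.439) was not, and Nts, the neurotensin precursor, named here after its values were seen, was called higher in D2 (1.00, SE 0.219, adjusted p = 0.00911), against 0.28 with all libraries (adjusted p = 0.424).

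The genes whose level followed Penk and Pdyn most closely over the 8 group means were sought among 11132 genes. For Penk they were Gpr6 (Pearson r = 0.993), an orphan receptor of D2-MSNs, Pla2g15 (0.984) and Gnb5 (0.983). For Pdyn they were Asic4 (0.995), Slc35d3 (0.970) and Drd1 (0.955). The 8 points share the 3 methods and their depths, and these values are a description only.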

How the data were processed

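RNA of 47 libraries was measured by RNA-seq. The authors deposited raw fragment counts per gene, made with HISAT2 2.0.5, GRCm38 and featureCounts on Ensembl 90 per the labels and methods, over whole genes without strand, each fragment counted for every gene it overlapped and fragments with several alignments left out. The table held 49 columns, and 2 carried the number of another whole cell library and were summed with it. The D2 pair differed by no more than sampling noise (chi-square per degree of freedom 1.04, other D2 pairs at least 20.1), whereas the D1 pair did not (6.90, other D1 pairs from 6.02), so whether it is 1 library is not settled. Thus 8 whole cell D1 and 6 D2 libraries were used where titles name 8 and 8. The paper reports more samples than were used here for both groups, and whether it counted the 2 summed columns as samples is not stated. Of 52636 genes, 52489 (99.7%) matched the annotation.

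Counts were tested with edgeR 4.0.16 (R 4.3.3, TMM) within each method and sex. Genes needed more than 1 CPM in 2 libraries and, with DESeq2 1.42.0 size factors, an FPKM of 1 in 1 library and at most 50000 in all (RiboTag 0.1 in 2). Fits over methods or sexes used the first filter only and called genes at an adjusted p of 0.05. Log2 ratios had 0.5 added to each count and exact permutation tests over libraries (scipy 1.17.1). Coding sequences came from GENCODE M21.

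The 5 genes were always named. Listed genes were named where called in any D2 against D1 comparison, and the 3 most similar genes by Pearson r. The members and lists were chosen with earlier results of these data known. Simulated counts with 200 genes changed by a log2 of 1.5 were judged by the adjusted p alone, without the other rules for a call. The fit recovered 54.5% in the nuclear design (9852 genes), 40% in whole cell (16567) and 99% in each RiboTag design (6739 and 7021). Of the genes found, 1.80%, 5.88%, 3.88% and 6.16% were false. Alternatives were DESeq2, its size factors, other filters, background subtraction, a replicate block and leaving out each library. Splits by lane and depth and leaving out the 6 libraries labelled male with more Xist than Y-linked counts were chosen after seeing the data. Separate mice were used per sample, per the labels.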

Additional observations from a re-analysis of the deposited data

Results flagged for a closer look

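The D2 against D1 change differed between methods for 3 of the 5 genes by the test of the difference itself (edgeR, adjusted p-values in the report). The nuclear minus whole cell difference was -7.13 for Penk, 2.28 for Pdyn and -2.16 for A830012C17Rik on the log2 scale, and the nuclear minus RiboTag difference was -5.97 for Penk and -2.82 for A830012C17Rik.

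Single libraries stood far from the others of their group in 10 of 56 group values tested by Dixon's criterion, which chance alone exceeds in about 1 of 20. In CPM, Pdyn was 27.5 in nuclear D1 number 6 against 8.52 to 14.8 in the others, and A830012C17Rik 81.4 in whole cell D2 number 2 against 39.9 to 54.5. Male RiboTag D2 number 3 held the least Penk (631 against 700 to 733) and the most Pdyn (6.66 against 4.09 to 4.95), and so had the lowest log2 ratio of Penk to Pdyn (7.89 against 8.53 to 8.81). Male RiboTag D1 number 1 held 38.4 of Pdyn against 25.7 to 30.3. Nuclear D2 number 5 had a log2 ratio of 1.10 against 3.23 to 3.95. At very few counts, Pnoc was 0.339 in male RiboTag D1 number 5 (0 to 0.100 in the others) and 0.184 in female RiboTag D1 number 4 (0.151 to 0.160), and Pomc was 0.176 in male RiboTag D2 number 6 (0.0646 to 0.0957).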

How the results depend on the processing

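Outside the nuclei the calls of Penk, Pdyn and A830012C17Rik held their direction and threshold under all 21 whole cell, 17 male and 14 female RiboTag alternatives, with Penk at 3.09 to 3.44, 2.17 to 2.56 and 2.50 to 2.81. Nuclear Penk ran from -3.66 without the FPKM filter to -2.01 and kept its direction in all 21, but lost its call in 5, the replicate block (-2.52, adjusted p = 0.155) and the 4 splits by lane and depth. Of the 5 genes, 2 were then called in nuclei without the FPKM filter and 0 with the block or in any of those splits, where fewer libraries were fitted. Nuclear Pdyn turned to 0.14 with the block and 0.20 in lane 5, and ran from -0.37 without D1 number 5 to 0.0253 without D1 number 6. Replicate numbers did not pair the libraries, since the deviations of same-numbered libraries correlated at -0.25 to 0.20 in nuclear, -0.22 to 0.10 in whole cell, -0.03 to 0.15 in male and -0.05 to 0.02 in female sets. With the replicate block the Penk to Pdyn difference was -2.66 in nuclei and 5.95 in the female set, where 4 pairs cannot go below an exact permutation p of 0.125, and 5.19 in the male set without the libraries rich in Xist.

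Other values that turned were all small and uncalled. Pomc was 0.25, 0.24 and 0.0303 (DESeq2 size factors, DESeq2, no filter) for nuclear against whole cell D2, and 0.0862 for RiboTag minus whole cell without the libraries rich in Xist. For female against male D2, leaving out a female library moved Penk from -0.0879 to 0.0242 (without D2 number 2) and 0.0020 (without number 6), and A830012C17Rik from -0.0916 to 0.0129 (without number 2), and A830012C17Rik was 0.0872 without the libraries rich in Xist. The causes were not tested.

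Counts over all genes moved more. Nuclear calls went from 1250 to 7383 without the FPKM filter and 0 with the block or in the splits, and from 426 (without D2 number 5) to 1623 (without D1 number 3). Whole cell calls went from 131 to 705 with DESeq2, 221 with its size factors, 34 without the FPKM filter, 76 with the block and 205 with the repeat column of D1 number 1 as a library of its own, and from 50 (without D1 number 3, 4 or 7) to 366 (without D2 number 1). The share of calls above 0 went with DESeq2 size factors from 52.7% to 71.9% in whole cells, then from 28.5% to 55.0% for nuclear minus whole cell, from 9.71% to 23.7% for nuclear minus RiboTag, and from 66.5% to 50.3% in D1 and 24.3% to 40.2% in D2 for nuclear against whole cell, and with DESeq2 from 23.1% to 33.3% in nuclear libraries. RiboTag calls went from 175 to 338 and from 134 to 205 without the FPKM filter. RiboTag minus whole cell went from 36 to 114 with DESeq2 and 3 without the libraries rich in Xist, nuclear minus RiboTag from 5036 to 2693 with size factors and 10 without those libraries, nuclear against whole cell D2 from 6629 to 13621 without a filter and RiboTag against whole cell D1 from 28184 to 16764 without those libraries. Female against male calls went from 0 to 6 with DESeq2, 8 without those libraries and 87 without female D1 number 4 in D1, and from 8 to 13 with DESeq2 in D2. Pnoc and Pomc had at most 10 counts per RiboTag library.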
